A study of Mus musculus with 64 samples.

Results

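The BCL2 family decides whether a cell keeps or loses the integrity of its mitochondria, and 10 of its genes were followed here out of 55809 gene rows in each count table: Bcl2, Bcl2l1, Bcl2l11, Mcl1, Bax, Bak1, Bbc3, Pmaip1, Bid and Bad. They were chosen by name with earlier results of these data known, so counts of members called describe the list and do not test it. All 10 were found in every one of 64 bulk RNA-seq libraries of mouse regulatory T (Treg) cells and of cells that transcribe a Foxp3 allele without making the protein. In the degron experiment all mice carried Foxp3-AID, a fusion of Foxp3 to an auxin-inducible degron with a ZsGreen reporter and a Cre recombinase driven by the Foxp3 locus, and all received 5-ph-IAA for 7 days. TIR1 mice also carried TIR1(F74G) at ROSA26, switched on by that Cre, so that Foxp3 protein was degraded, while WT mice kept wild-type ROSA26. Thymic CD73-negative Treg cells and active (CD62L low) Treg cells of spleen and lymph nodes came from adults, with 3 libraries per genotype each, and infant Treg cells of spleen and lymph nodes had 4 libraries per title. The study describes these adults as heterozygous Foxp3-AID/WT females and the infants as hemizygous Foxp3-AID/y males treated as newborns. In the reversible-allele experiment all mice carried Foxp3-LSL, in which a Thy1.1 and STOP cassette keeps Foxp3 off, and were given 4-hydroxytamoxifen (4-OHT) except on day 0. The study describes them as heterozygous Foxp3-LSL/WT females, which also hold functional Treg cells with the wild-type allele. PlusFoxp3 cells carried CreERT2 under Cd4 control, which removes the cassette, and minusFoxp3 cells carried no Cre. Resting and active cells were collected at days 0, 3, 7, 14 and 28 (D0 to D28), with 2 libraries per group, beside 2 libraries per state of GFP Treg cells from untreated Foxp3GFP mice.

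Members of this family work by binding one another. Bcl2, Bcl2l1 (which encodes BCL-XL) and Mcl1 encode guardians that hold death signals in check, and Bax and Bak1 encode the effectors that permeabilize the outer mitochondrial membrane. Bcl2l11 (BIM), Bbc3 (PUMA), Pmaip1 (NOXA), Bid and Bad encode BH3-only proteins that relay stress signals by binding guardians. Treg cells are known to depend on Mcl1 for survival, and Bcl2l11 is a known limiter of T cell and Treg cell numbers. Bcl2 is high in resting T cells that receive survival cytokines, and Bcl2l1 is commonly raised after T cell stimulation.

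The BH3 motif, a short helix that fits a groove of the guardians, is the part that makes these genes one family. Its coding stretch is shown for 9 members as background. The comparisons below are of RNA levels gene by gene, and no protein or balance among proteins was measured. Each line gives 42 bases of the coding strand, 5′ to 3′, read from a GENCODE transcript on GRCm39, and capitals mark the 6 codons of the core, which a search of the reading frame found once per gene.
Bcl2 (chr1:106640302-106640343, minus strand): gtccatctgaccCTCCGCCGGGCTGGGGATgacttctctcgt
Bcl2l1 (chr2:152671614-152671655, minus strand): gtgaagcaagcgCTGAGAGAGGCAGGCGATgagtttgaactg
Mcl1 (chr3:95566735-95566776, plus strand): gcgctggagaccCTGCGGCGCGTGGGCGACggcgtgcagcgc
Bcl2l11 (chr2:127989058-127989099, plus strand): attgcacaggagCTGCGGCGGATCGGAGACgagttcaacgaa
Bbc3 (chr7:16047686-16047727, plus strand): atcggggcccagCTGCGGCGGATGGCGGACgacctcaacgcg
Bid (chr6:120874247-120874288, minus strand): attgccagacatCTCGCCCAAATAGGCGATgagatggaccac
Bad (chr19:6928148-6928189, plus strand): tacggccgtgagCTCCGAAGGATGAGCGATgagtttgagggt
Bax (chr7:45115418-45115459, minus strand): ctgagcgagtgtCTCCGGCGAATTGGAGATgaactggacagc
Bak1 (chr17:27241502-27241543, minus strand): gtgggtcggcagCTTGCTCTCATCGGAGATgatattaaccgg

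All 9 stretches lie within 1 exon. Between pairs of genes the 18 bases of the core shared from 7 identical positions, in Bcl2l1 and Bak1, to 15, in the BH3-only genes Bcl2l11 and Bbc3. All 9 cores begin with CT, and they end with GAT in 6 genes and GAC in 3.

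Sequencing depth ran from 27753211 to 34029692 assigned read pairs per library for adult degron mice, from 33704114 to 55801009 for infants, and from 35097257 to 57419138 for the reversible-allele and GFP Treg libraries. At these depths every member had counts in every library, the lowest being 19 read pairs for Bak1. Foxp3, read first as the targeted gene, was at 526 to 615 CPM (read counts scaled to the library total) in resting plusFoxp3 libraries and 55.5 to 59.5 CPM in minusFoxp3 libraries at D28, and at 592 to 594 against 44.3 to 58.3 CPM in active ones. In the 3 degron comparisons no Foxp3 difference passed the test, which settles no genotype label there. The labels of those 20 libraries contradict each other: each adult file was placed by its header's library name, and under their recorded attachment every adult fold change between genotypes changes sign. The genotypes in the adult file names are those of the headers. With that placement the Treg genes Foxp3, Il2ra, Ctla4, Ikzf2 and Tnfrsf18 were summed. In active cells they were at 1852 to 2037 CPM in TIR1 and 2173 to 2252 CPM in WT libraries. In thymic cells they were at 2224 to 2494 CPM against 2661 to 2791 CPM, and infant sums overlapped. None of these genes was called there. The genotype field of the infant libraries is the opposite of their titles, which their file names follow, so those groups are named by title. The T cell genes Cd3e, Cd4 and Trac summed to 2559 CPM or more in every group mean, while 10 markers of B, CD8, myeloid and NK cells summed to at most 74.8 CPM in any library. The study calls the adult degron and the plusFoxp3 and minusFoxp3 libraries of a group independent biological replicates. For the infant and GFP Treg libraries no such statement was found, so there p-values measure only the spread between libraries, which may be technical.

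Levels of different genes were compared per length, as TPM (counts divided by gene length and scaled to a common total). The order of the guardians was the same in resting and active cells but the distances were not. In the 22 resting libraries Mcl1 had a median of 849 TPM with a range of 718 to 1146 TPM. Bcl2 followed at 131 TPM, with a range of 74.5 to 173 TPM, and Bcl2l1 was lowest of the 3 at 25.5 TPM, with a range of 14.5 to 52.7 TPM. In the 22 active libraries the medians were 564 TPM for Mcl1, 49.0 TPM for Bcl2 and 31.1 TPM for Bcl2l1. Here the ranges of Bcl2 (30.4 to 72.1 TPM) and Bcl2l1 (19.1 to 58.4 TPM) overlapped.

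The effectors were unequal. Bax had medians of 324 and 364 TPM in resting and active libraries, and Bak1 had 3.60 and 3.64 TPM, the lowest of all 10 members. Among BH3-only genes the median levels of resting libraries ran from Bbc3 (45.4 TPM) through Bid (32.1 TPM), Bcl2l11 (25.8 TPM) and Pmaip1 (19.4 TPM) to Bad (15.3 TPM). In active libraries Pmaip1 led with 61.0 TPM and Bcl2l11 was last with 14.4 TPM. In both states the range of each of these 5 genes overlapped that of its neighbour in the order. Bak1 lay below every other member in the active libraries.

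**Figure D1:**
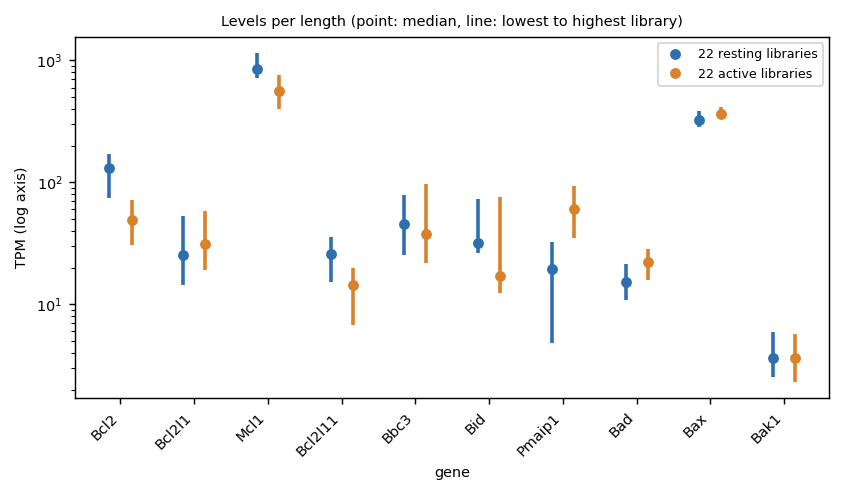
Levels of the 10 members per length in the 44 reversible-allele and GFP Treg libraries, with TPM on a log axis, a point for the median and a line from the lowest to the highest of 22 resting or 22 active libraries. Mcl1 and Bax lie at the top in both states, Bak1 lies at the bottom, and Bcl2 is lower in active than in resting libraries.

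The first question was what restoring Foxp3 does to the family. Averaged over D3 to D28, Bcl2l1 was the member that edgeR called higher with Foxp3 in both cell states. The means of Bbc3 and Bid were also higher on each of these days in both states. Without 4-OHT, on D0, Bcl2l1 was already higher by 0.52 (SE 0.21) in resting and 0.43 (SE 0.15) in active cells on the log2 scale, neither called. In resting cells the 8 plusFoxp3 libraries of D3 to D28 ranged from 47.9 to 82.7 CPM with a median of 62.5 CPM, and the 8 minusFoxp3 libraries from 29.2 to 34.9 CPM with a median of 31.8 CPM. The 2 sets did not overlap on any day. In active cells plusFoxp3 libraries ranged from 50.7 to 84.9 CPM (median 60.8 CPM) and minusFoxp3 libraries from 34.4 to 47.3 CPM (median 41.5 CPM), again without overlap. Averaged over the 4 days, the log2 fold change was 1.00 (SE 0.11, edgeR adjusted p = 2.70e-05) in resting and 0.64 (SE 0.08, edgeR adjusted p = 5.27e-05) in active cells. In resting cells it was the only member edgeR called in this average, where 4.73% of all genes tested were called. DESeq2, which called more of all genes there, also called Bbc3 and Bid (adjusted p = 0.00782 and 0.0119).

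Both plusFoxp3 libraries lay above both minusFoxp3 libraries on each of the 4 days for 1 of 10 members in resting cells, Bcl2l1, and for 1.62% of all genes tested there. In active cells this held for 4 of 10 members, Bcl2l1, Mcl1, Bbc3 and Bid, and for 1.33% of all genes.

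By single days, Bcl2l1 in resting plusFoxp3 cells was at 57.8 and 63.8 CPM on D3, 63.4 and 47.9 CPM on D7, 74.2 and 57.7 CPM on D14, and 82.7 and 61.7 CPM on D28. The 2 libraries of GFP Treg cells had 85.8 and 62.0 CPM, the first above both libraries of the D28 pair and the second between them. The log2 fold change against minusFoxp3 cells of the same day was 1.03 (SE 0.21) on D3, 0.67 (SE 0.21) on D7, 1.19 (SE 0.21) on D14 and 1.13 (SE 0.21) on D28. It was called on D14 and D28, with edgeR adjusted p-values of 0.0218 and 0.0143, against 0.112 on D3 and 0.501 on D7. Of all genes tested in resting cells, 0.0487% were called on D3, 0.0585% on D7, 0.268% on D14 and 0.945% on D28. Each of these 2 calls was lost when plusFoxp3 replicate 1 or either minusFoxp3 library of that day was left out. On D14 the adjusted p was then 0.29 without plusFoxp3 replicate 1, and 0.18 and 0.12 without minusFoxp3 replicates 1 and 2, and on D28 the same 3 omissions gave 0.17, 0.20 and 0.16.

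In active cells the Bcl2l1 level of plusFoxp3 cells was 50.7 and 62.8 CPM on D3, 55.2 and 57.9 CPM on D7, 63.6 and 58.8 CPM on D14, and 84.9 and 77.4 CPM on D28, with GFP Treg cells at 87.0 and 91.4 CPM. The D28 pair lay above all earlier plusFoxp3 libraries and below both GFP Treg libraries. The log2 fold change on D28 was 0.84 (SE 0.15, edgeR adjusted p = 0.00645). On D3, D7 and D14 it was 0.51, 0.63 and 0.57 (each SE 0.15), with adjusted p-values of 0.290, 0.0820 and 0.118. The D28 call ended without plusFoxp3 replicate 1 (adjusted p = 0.055) and without minusFoxp3 replicate 1 or 2 (0.13 and 0.061). Without minusFoxp3 replicate 2 of D7, the D7 fold change was 0.75 and was called (adjusted p = 0.0182), when 2435 genes were called in all against 118 with all libraries. Of all genes tested in active cells 0.274%, 0.568%, 0.732% and 1.85% were called on D3, D7, D14 and D28.

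Bcl2 moved the other way in active cells. Their plusFoxp3 libraries of D3 to D28 ranged from 97.4 to 151 CPM with a median of 122.5 CPM, and the minusFoxp3 libraries from 130.1 to 244 CPM with a median of 185 CPM. Both plusFoxp3 libraries lay below both minusFoxp3 libraries on 3 of 4 days, and on D7 the pairs, 126 and 132 against 130.1 and 183 CPM, overlapped. The mean log2 fold change fell by 0.60 (SE 0.10, edgeR adjusted p = 0.00105). The lowest group of all was D14, with 113 and 97.4 CPM against 213 and 184 CPM, where Bcl2 was the only member called (log2 fold change -0.91, SE 0.20, adjusted p = 0.0423). That single-day call ended without any 1 of its 4 libraries, with adjusted p-values from 0.11 to 0.39. On active D28 the Bcl2 log2 fold change was -0.72 (SE 0.20) and edgeR did not call it (adjusted p = 0.0872). DESeq2 called it (adjusted p = 0.0238), as did edgeR without the count filter (adjusted p = 0.0186). In resting cells Bcl2 ranged from 267 to 461 CPM in plusFoxp3 and from 412 to 569 CPM in minusFoxp3 libraries, and the mean log2 fold change of -0.27 (SE 0.11) did not pass the edgeR test (adjusted p = 0.213).

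Mcl1, the guardian on which Treg survival is known to rest, was slightly higher in active plusFoxp3 cells. Its plusFoxp3 libraries ranged from 633 to 786 CPM (median 730 CPM) and its minusFoxp3 libraries from 532 to 677 CPM (median 606 CPM), and the mean log2 fold change was 0.27 (SE 0.06, edgeR adjusted p = 0.00620). On each day both plusFoxp3 libraries were above both minusFoxp3 libraries, but no single day was called. In resting cells Mcl1 ranged from 909 to 1226 CPM and from 919 to 1313 CPM, with a mean log2 fold change of 0.04 (SE 0.10, adjusted p = 0.874).

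**Figure D2:**
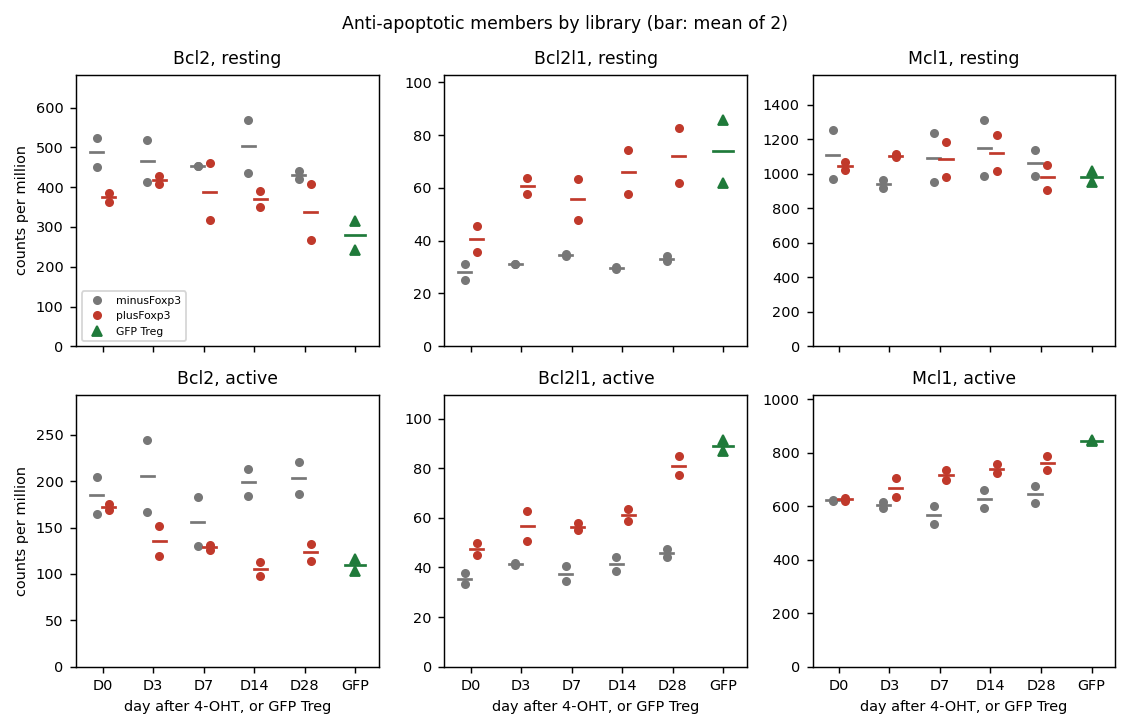
CPM of the 3 guardians in each reversible-allele library, by day after 4-OHT, with resting cells above and active cells below; points are libraries, bars are means of 2, and triangles are GFP Treg cells. Bcl2l1 is higher in plusFoxp3 than in minusFoxp3 libraries on each of D3 to D28 in both states, Bcl2 is lower in active plusFoxp3 means, and Mcl1 differs in active cells only by a small step.

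Of the BH3-only genes, Bcl2l11 was the one called lower. Active plusFoxp3 libraries of D3 to D28 ranged from 19.5 to 40.4 CPM with a median of 24.1 CPM, and minusFoxp3 libraries from 31.4 to 52.8 CPM with a median of 43.9 CPM. The pairs were 26.5 and 22.3 against 51.2 and 42.4 CPM on D3, 21.1 and 25.97 against 31.4 and 52.8 CPM on D7, 19.5 and 29.5 against 40.2 and 48.2 CPM on D14, and 22.1 and 40.4 against 45.4 and 39.5 CPM on D28. They overlapped on D28 only. The mean log2 fold change fell by 0.74 (SE 0.15, edgeR adjusted p = 0.00463). In resting cells Bcl2l11 ranged from 45.4 to 96.7 CPM in plusFoxp3 and from 67.8 to 93.4 CPM in minusFoxp3 libraries, where the mean log2 fold change was -0.07 (SE 0.14, adjusted p = 0.843). For Bcl2 and Bcl2l11, 2 of 10 members, both plusFoxp3 libraries lay below both minusFoxp3 libraries on at least 3 of 4 active days, which held for 6.16% of all genes tested.

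Bbc3, a target of p53 and of FOXO factors, was higher in active plusFoxp3 cells, where the D0 difference was already 0.71 (SE 0.21) on the log2 scale. In active cells its plusFoxp3 libraries of D3 to D28 ranged from 28.5 to 53.3 CPM (median 38.5 CPM) and its minusFoxp3 libraries from 19.7 to 27.0 CPM (median 23.5 CPM), and the mean log2 fold change was 0.72 (SE 0.10, edgeR adjusted p = 0.000374). On D28 the libraries had 53.3 and 43.5 CPM against 22.6 and 27.0 CPM (log2 fold change 0.98, SE 0.21, adjusted p = 0.0189), a call that ended without plusFoxp3 replicate 1 (0.16) and without minusFoxp3 replicate 1 or 2 (0.27 and 0.087). In resting cells plusFoxp3 libraries ranged from 30.8 to 44.7 CPM and minusFoxp3 libraries from 21.9 to 41.0 CPM, and the mean log2 fold change of 0.55 (SE 0.15) just missed the threshold (adjusted p = 0.0510). Without minusFoxp3 replicate 2 of D14, at 41.0 CPM the highest minusFoxp3 library, it was 0.67 and was called (adjusted p = 0.0243).

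Bid, which caspase-8 cleaves to link death receptors to mitochondria, was higher in active plusFoxp3 cells as well. Its plusFoxp3 libraries were at 20.8 to 23.3 CPM on D3 and D7, 25.5 and 27.5 CPM on D14, and 29.9 and 39.8 CPM on D28, while all 8 minusFoxp3 libraries lay between 14.9 and 20.2 CPM. The mean log2 fold change was 0.55 (SE 0.10, edgeR adjusted p = 0.00281), and on D28 it was 0.86 (SE 0.20, adjusted p = 0.0379). The D28 call ended without plusFoxp3 replicate 2 (adjusted p = 0.34) and without minusFoxp3 replicate 1 or 2 (0.23 and 0.24). In resting cells Bid on D28 was at 55.2 and 60.5 CPM against 32.3 and 36.9 CPM, with a log2 fold change of 0.76 (SE 0.19, adjusted p = 0.0921). The mean over days was 0.33 (SE 0.10, adjusted p = 0.0676), and it was 0.39 and called (0.0451) without plusFoxp3 replicate 2 of D14. Bid shares 628 exonic bases with Bcl2l13 on the opposite strand, which had more reads (means of 2102 against 1692 read pairs), and counting did not use strand, so reads of the 2 genes cannot be told apart in that overlap.

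The other members showed no call for Foxp3. Pmaip1 in active cells ranged from 43.1 to 79.7 CPM in plusFoxp3 and 35.4 to 85.3 CPM in minusFoxp3 libraries, with a mean log2 fold change of -0.01 (SE 0.16). Bad, which in active cells had a mean log2 fold change of 0.10 (SE 0.13), was at 17.5 to 23.9 CPM and 14.4 to 28.3 CPM. Bax, with 188 to 221 CPM against 178 to 259 CPM, had 0.03 (SE 0.08), and Bak1, at 2.67 to 4.83 CPM against 2.18 to 5.44 CPM, had 0.22 (SE 0.20). Their edgeR adjusted p-values ran from 0.687 to 0.982. Bak1 had the largest standard error of the 10. Bad shares 524 exonic bases with Gpr137 on the opposite strand (means of 734 and 580 read pairs), whose reads cannot be told apart there. In all, 6 of 10 members were called in the active mean, where 6.22% of all genes tested were called, 4 higher and 2 lower.

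**Figure D3:**
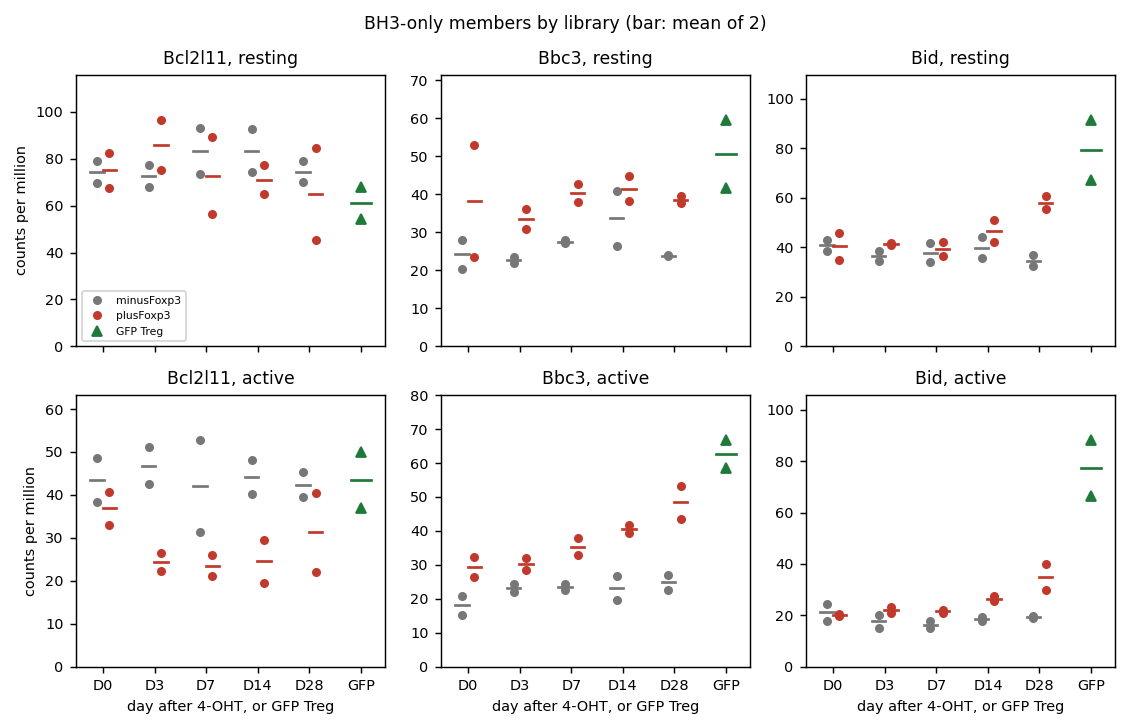
CPM of 3 BH3-only genes in each reversible-allele library, by day after 4-OHT, with resting cells above and active cells below; points are libraries, bars are means of 2, and triangles are GFP Treg cells. In active cells Bcl2l11 is lower, and Bbc3 and Bid are higher, in plusFoxp3 means on each of D3 to D28, and the GFP Treg libraries of Bid stand above all others.

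Without 4-OHT, CreERT2 carriers and littermates were compared on D0, and no member passed. The D0 log2 differences of Foxp3 itself were 0.055 in resting and -0.056 in active cells, neither called. On D0 the name plusFoxp3 thus marks the CreERT2 genotype and not a measured rise of Foxp3. On that day Bcl2l1 was at 35.6 and 45.6 CPM in plusFoxp3 and 25.2 and 31.2 CPM in minusFoxp3 resting libraries (log2 difference 0.52, SE 0.21), and at 49.9 and 44.9 against 33.2 and 37.9 CPM in active ones (0.43, SE 0.15). Bbc3 had D0 differences of 0.65 (SE 0.31) and 0.71 (SE 0.21). No member was called in either state, where 0.00487% of all genes in resting and 0.00481% in active cells were. Without plusFoxp3 replicate 2 of resting D0, Bbc3 was called there with a difference of 1.10 (adjusted p = 0.0189), when 2096 genes were called in all against 1 with all libraries. When the D0 difference was subtracted from the mean of the treated days, no member was called. Bcl2l1 kept 0.49 (SE 0.23) in resting and 0.21 (SE 0.17) in active cells, and Bid kept 0.36 (SE 0.22) and 0.61 (SE 0.23). Bbc3 was left with -0.09 (SE 0.34) and 0.00 (SE 0.23), Bcl2 in active cells with -0.51 (SE 0.22) and Bcl2l11 there with -0.52 (SE 0.33). All edgeR adjusted p-values of these differences were 0.422 or more, and 0.136% and 0.472% of all genes were called.

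Cell cycle genes were higher with Foxp3 in the mean over days of resting cells. The sum of 10 proliferation genes was 143 to 617 CPM in resting plusFoxp3 libraries of D3 to D28 and 99.1 to 177 CPM in minusFoxp3 libraries, and all 10 were called higher in the mean. None of the 10 was called on any single resting day or once the D0 difference was subtracted. The plusFoxp3 libraries had sums of 143 and 542 CPM on D14, and 222 and 617 CPM on D28. In active cells the sums were 181 to 750 CPM and 199 to 498 CPM, and none of the 10 was called in the mean. On active D3 alone 4 of the 10 were called higher, with sums of 532 to 750 against 209 to 237 CPM, and on active D14 1 was called lower. The part of proliferation in the member values was not tested. In bulk libraries a change in the share of cells that express a gene and a change in its level per cell cannot be told apart.

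The difference between the states was tested directly. For the mean over D3 to D28, the effect on Bcl2l11 was lower in active than in resting cells by 0.69 on the log2 scale (SE 0.21, edgeR adjusted p = 0.0921), and that on Bcl2l1 by 0.38 (SE 0.13, adjusted p = 0.126). No member passed, while 1.82% of all genes tested did. The same held for D28 alone, where 0.0818% of all genes passed. With the replicate number as a block the Bcl2l11 difference was -0.68 and passed (adjusted p = 0.0469), as it did with DESeq2 (-0.69, adjusted p = 0.0461).

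**Figure D4:**
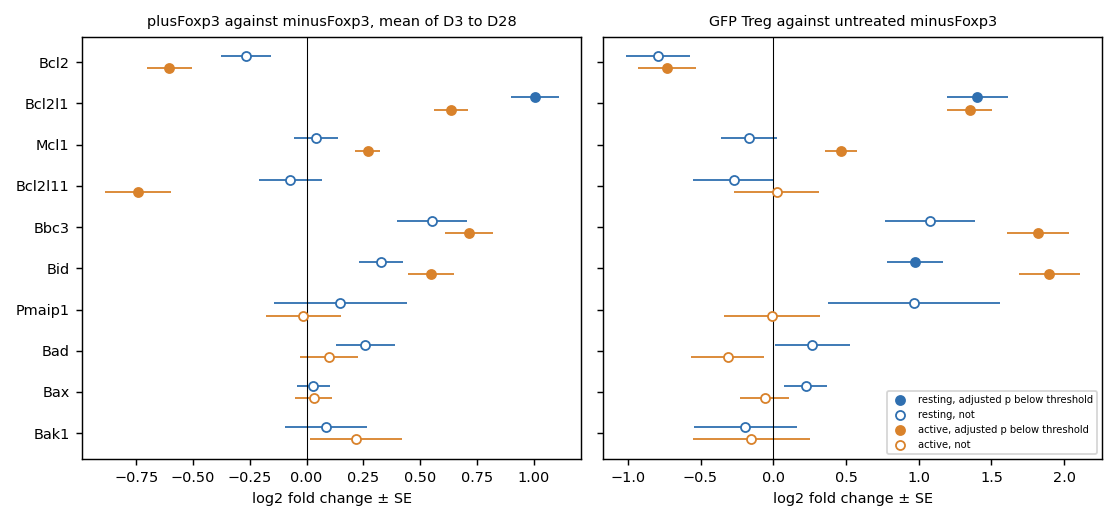
Log2 fold changes with standard errors of the 10 members, on the left for plusFoxp3 against minusFoxp3 cells averaged over D3 to D28 and on the right for GFP Treg cells against untreated minusFoxp3 cells; filled points passed the edgeR test. Bcl2l1 passed in all 4 comparisons, and Bcl2l11 passed only in active cells on the left, at -0.74.

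GFP Treg cells, which never lacked Foxp3, were compared with untreated minusFoxp3 cells. These contrasts share the untreated minusFoxp3 libraries with the D0 comparison above, so the comparisons are not independent. In active minusFoxp3 cells the D0 mean was the lowest of all days for Bcl2l1 (35.6 against 37.6 to 45.8 CPM) and Bbc3 (18.1 against 23.2 to 24.8 CPM). For Bid it was the highest (21.1 against 16.3 to 19.3 CPM). In resting minusFoxp3 cells Bcl2l1 was also lowest on D0 (28.2 against 29.7 to 34.6 CPM). Mouse line and Foxp3 differ together between these groups and cannot be told apart. Of 10 proliferation genes 4 were called lower in active GFP Treg cells and 0 were called in resting ones, and their part was not tested. In active cells 5 of 10 members were called against 10% of all genes tested. Bid was at 88.3 and 66.4 CPM against 17.8 and 24.4 CPM (log2 fold change 1.90, SE 0.21, edgeR adjusted p = 1.08e-05). Bbc3 was at 66.8 and 58.5 CPM against 20.9 and 15.2 CPM (1.82, SE 0.21, adjusted p = 2.27e-05). Bcl2l1 was at 87.0 and 91.4 CPM against 33.2 and 37.9 CPM (1.35, SE 0.15, adjusted p = 1.64e-05). In all 3 genes both GFP Treg libraries lay above both minusFoxp3 libraries.

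Mcl1 was at 847 and 843 CPM against 620 and 624 CPM (log2 fold change 0.47, SE 0.11, edgeR adjusted p = 0.0110). Bcl2 was lower, at 103 and 116 CPM against 165 and 205 CPM (-0.73, SE 0.20, adjusted p = 0.0244). Bcl2l11 did not pass, with 37.0 and 50.1 CPM against 48.7 and 38.5 CPM (0.02, SE 0.29, adjusted p = 0.983). The Mcl1 call ended without any 1 of the 4 libraries (adjusted p-values 0.054 to 0.12). The Bcl2 call ended without minusFoxp3 replicate 2 (0.16) and without GFP Treg replicate 1 or 2 (0.15 and 0.079).

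In resting cells 2 members were called against 2.91% of all genes. Bcl2l1 was at 85.8 and 62.0 CPM against 25.2 and 31.2 CPM (log2 fold change 1.40, SE 0.21, edgeR adjusted p = 0.00111). Bid was at 91.5 and 67.1 CPM against 43.1 and 38.6 CPM (0.97, SE 0.20, adjusted p = 0.0101). Its call ended without GFP Treg replicate 1 (adjusted p = 0.18) and without minusFoxp3 replicate 1 or 2 (0.064 and 0.062). Bcl2 (-0.79, SE 0.22) and Bbc3 (1.08, SE 0.31) had adjusted p-values of 0.0674 and 0.0812, and their libraries did not overlap. With the replicate block Bcl2 passed here (-0.80, adjusted p = 0.0492). The effects of the 2 states did not differ for any member by the test of the difference, in which 2.43% of all genes passed, and the Bid difference was 0.90 (SE 0.28, adjusted p = 0.0920).

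Against plusFoxp3 cells of D28, GFP Treg cells differed in 1 member. Active Bid was higher by 1.15 on the log2 scale (SE 0.20, edgeR adjusted p = 0.00463), with 88.3 and 66.4 CPM against 29.9 and 39.8 CPM. This call ended without plusFoxp3 replicate 1 (adjusted p = 0.11) or GFP Treg replicate 1 (0.13), and 2.01% of all genes tested were called. Bcl2l1 had a log2 difference of 0.14 (SE 0.15) there and 0.04 (SE 0.21) in resting cells, where no member and 0.0341% of all genes were called.

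Resting and active cells without a Foxp3 contrast were compared as well, and Bcl2 was lower in active cells in both comparisons. Active GFP Treg cells had 103 and 116 CPM of Bcl2 and resting ones 242 and 316 CPM (log2 fold change -1.37, SE 0.22, edgeR adjusted p = 0.000456), the only member called where 3.12% of all genes were. In untreated minusFoxp3 cells Bcl2 was at 165 and 205 against 451 and 524 CPM (-1.40, SE 0.22, adjusted p = 3.56e-05). Also called there were Mcl1 (-0.84, SE 0.15, adjusted p = 0.000230), Bid (-0.95, SE 0.20, adjusted p = 0.00113) and Pmaip1, a gene of the integrated stress and p53 responses, which was higher in active cells with 43.3 and 57.4 against 7.91 and 18.0 CPM (1.95, SE 0.51, adjusted p = 0.00957). The Pmaip1 call ended without active replicate 2 (0.073) or resting replicate 1 (0.19). These 4 calls stand against 13.4% of all genes. The sum of proliferation genes was 268 to 473 CPM in these active and 107 to 131 CPM in these resting minusFoxp3 libraries, and 158 to 201 CPM in active and 232 to 286 CPM in resting GFP Treg libraries. Its part was not tested.

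The degron comparisons asked whether losing Foxp3 protein for 7 days moves the same genes. In thymic Treg cells Bcl2 was at 457, 516 and 386 CPM in TIR1 and 418, 415 and 444 CPM in WT libraries (log2 fold change 0.09, SE 0.10). Bcl2l1 was at 95.2, 88.1 and 84.5 CPM against 82.7, 99.6 and 101 CPM (-0.09, SE 0.12). In both genes the groups overlapped. The 10 log2 fold changes ran from -0.75 (SE 0.62) for Pmaip1 to 0.39 (SE 0.87) for Bak1, with edgeR adjusted p-values of 0.890 or more. Of all genes tested 0% were called, with 1050 genes at an unadjusted p under 0.05, and DESeq2 called 156 genes, no member among them.

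In active Treg cells Bcl2 was at 104, 175 and 127 CPM in TIR1 and 108, 124 and 103 CPM in WT libraries (log2 fold change 0.23, SE 0.20). Bcl2l1 was at 55.7, 62.2 and 73.6 CPM against 36.0, 52.7 and 70.1 CPM (0.24, SE 0.25). Bid was at 33.9, 49.8 and 52.3 CPM against 39.7, 38.8 and 32.8 CPM (0.25, SE 0.23). The libraries of all 10 members overlapped between genotypes in thymic and in active cells, and no member was called by edgeR or DESeq2. In active cells edgeR called 0% of all genes, with 672 at an unadjusted p under 0.05, and DESeq2 called 21 genes. No member passed in the difference of the thymic and active effects either, where edgeR called 0% (984 at an unadjusted p under 0.05) and DESeq2 71 genes. The standard errors of the active log2 fold changes ran from 0.13 for Mcl1 to 0.57 for Bak1.

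In infants the members overlapped as well. Bcl2 was at 705 to 867 CPM in libraries titled TIR1 and 565 to 792 CPM in those titled WT (log2 fold change 0.35, SE 0.11, edgeR adjusted p = 0.138). Without titled WT replicate 4, whose Bcl2 was the highest of its group at 792 CPM, it was 0.48 and was called (adjusted p = 0.00280), when 1774 genes were called in all. Of all genes tested with all 8 libraries, edgeR called 0.0185%. DESeq2 called Bcl2 with all 8 (0.35, adjusted p = 0.0475), when 1107 genes were called in all. Bcl2l1 was at 68.8 to 78.6 CPM and 71.4 to 92.0 CPM (-0.08, SE 0.10), and Bcl2l11 at 170 to 277 CPM and 169 to 247 CPM (0.20, SE 0.16). The proliferation genes summed to 853 to 1337 CPM in libraries titled TIR1 and 285 to 831 CPM in those titled WT, without overlap, and their part in the Bcl2 value was not tested.

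**Figure D5:**
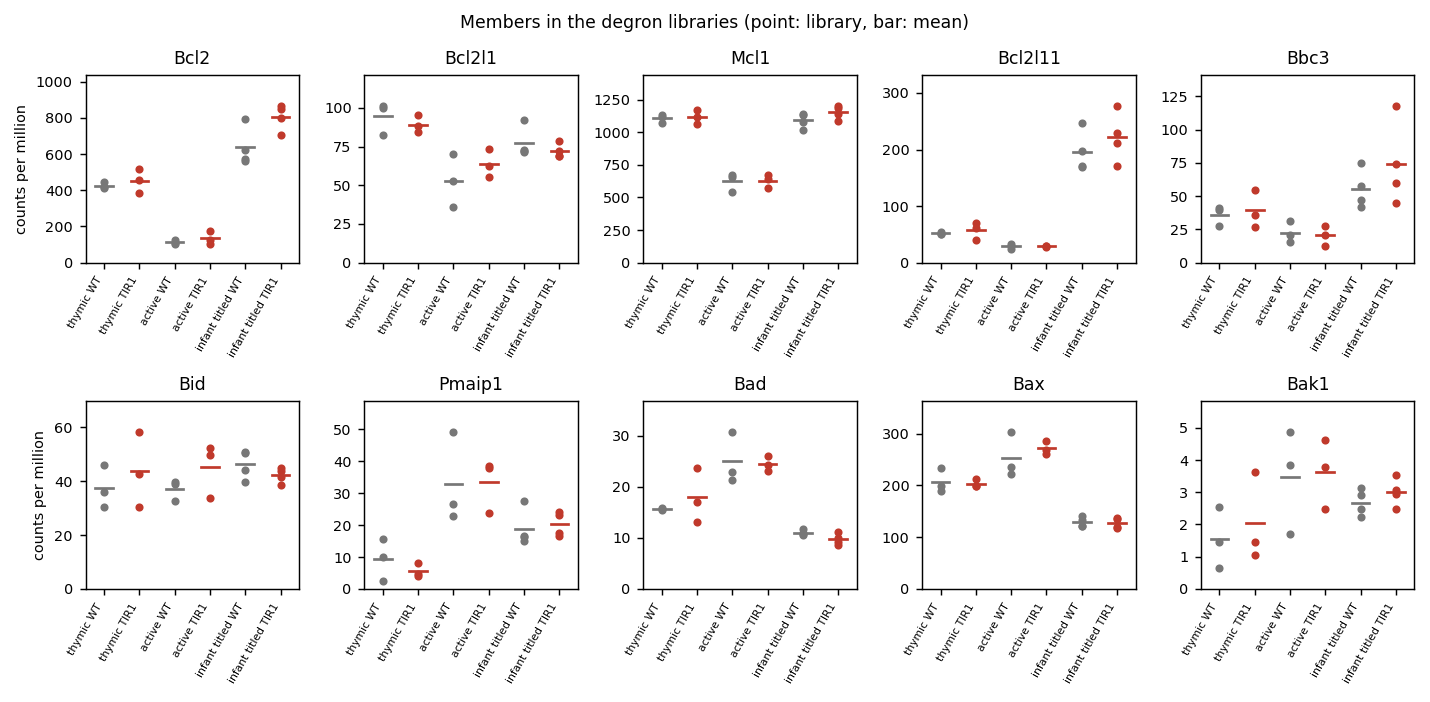
CPM of the 10 members in the 20 degron libraries, as points with bars for the means of 3 adult or 4 infant libraries. TIR1 and WT points overlap for all members in all 3 comparisons, while thymic and active cells differ in Bcl2, Mcl1 and Bcl2l11.

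Thymic and active peripheral WT Treg cells differed in 7 of 10 members, against 23% of all genes tested. All 3 guardians were higher in the thymus. Bcl2 was at 418, 415 and 444 CPM against 108, 124 and 103 CPM (log2 fold change 1.83, SE 0.17, edgeR adjusted p = 9.00e-06), and Mcl1 at 1070, 1133 and 1115 CPM against 541, 660 and 669 CPM (0.73, SE 0.09, adjusted p = 0.000101). Bcl2l1 was at 82.7, 99.6 and 101 CPM against 36.0, 52.7 and 70.1 CPM (0.75, SE 0.21, adjusted p = 0.0224). None of these 3 pairs of groups overlapped. The BH3-only gene Bcl2l11 was also higher, at 53.6, 51.1 and 51.0 CPM against 29.1, 24.4 and 32.5 CPM (0.76, SE 0.20, adjusted p = 0.0164).

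Pmaip1 was lower in the thymus, at 15.7, 2.58 and 10.1 CPM against 26.6, 22.8 and 49.1 CPM (log2 fold change -1.89, SE 0.55, edgeR adjusted p = 0.0255). Bax (-0.38, SE 0.13) and Bad (-0.77, SE 0.25) were lower with adjusted p-values of 0.0480 and 0.0424. Bcl2 and Mcl1 passed without any 1 library, while the other calls each ended without at least 1: Bcl2l11 without active replicate 2 (0.065), Bcl2l1 without active replicate 2 or thymic replicate 2 or 3 (0.060 to 0.066), Pmaip1 without active replicate 3 (0.096) or thymic replicate 3 (0.064), Bax without active replicate 1 or 2 or thymic replicate 2 or 3 (0.060 to 0.16), and Bad without any library but active replicate 2 (0.061 to 0.12). Tissue, gate and state differ together between these groups and cannot be told apart. The proliferation genes summed to 24.5 to 66.8 CPM in thymic and 417 to 537 CPM in active WT libraries.

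Around the family, genes of the same pathways were read from fixed lists. Of all genes tested, 6.22% were called in the active mean and 4.73% in the resting mean. Of 15 further BCL2 relatives, 13 were tested in active cells, and in the mean over D3 to D28 1 was called higher and 4 lower, with a list median log2 fold change of -0.05 beside 0.00 for all genes. Bik, a BH3-only gene, fell by 1.28 (SE 0.15, edgeR adjusted p = 5.64e-05), and Bnip3, a mitophagy receptor, rose by 1.13 (SE 0.14, adjusted p = 8.42e-05). The guardians Bcl2a1d (-1.13), Bcl2a1a (-1.11) and Bcl2a1b (-0.55) were lower too, but they are near-identical copies whose reads can be split between them. In resting cells none of 12 was called.

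Of 12 death receptor genes 3 were called higher in the active mean, led by Fas (1.02, SE 0.10, edgeR adjusted p = 9.35e-06), and 1 higher and 1 lower in the resting mean. The shares over all genes were 6.22% and 4.73%. The effect on Fas was larger in active than in resting cells by 0.75 (SE 0.13, edgeR adjusted p = 0.00190).

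Of 12 survival cytokine receptor and STAT5 genes, 3 were called higher and 1 lower in the resting mean and 4 higher in the active mean. Over all genes 4.73% and 6.22% were called in these means. Il2ra, the IL-2 receptor alpha chain, rose by 1.15 (SE 0.10, edgeR adjusted p = 7.29e-06) and 0.79 (SE 0.10, adjusted p = 9.53e-05). Il2rb rose by 1.21 (SE 0.10, adjusted p = 3.36e-06) in resting cells. Of 13 tested genes of p53 and its targets, 1 was called higher in the resting and 3 in the active mean, and of 8 FOXO factors and upstream kinases 1 lower and 1 higher, with Foxo1 at 0.32 (edgeR adjusted p = 0.00470) in active cells. Beside those shares, a single call in lists this short is not read as a result about the list.

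FOXO and STAT5 factors are known to bind promoters of this family, so the 15 RefSeq promoters of 9 members (GRCm38.p6, 250 bases before to 50 after the gene start) were searched on both strands for TGTTTAC, a forkhead site, TTCNNNGAA, a STAT site, and TGACGTCA, a cyclic AMP response element. Only TGTTTAC was found, in 2 of the 15, against 3.65% of all 32851 promoters, while TTCNNNGAA is in 8.3% and TGACGTCA in 1.79% of them. The 30 bases around each match are shown on the gene's strand with the match in capitals, which in Bcl2l11 reads from the other strand.
Bcl2l11 (chr2:128125800-128125829): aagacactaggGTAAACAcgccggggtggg
Bbc3 (chr7:16310083-16310112): tctggcgggttTGTTTACaaacaatggggt
The matches begin 227 and 167 bases before the gene start, and they are letters in a window, not shown sites of binding. In active plusFoxp3 cells the mean over D3 to D28 was lower for Bcl2l11 and higher for Bbc3 than in minusFoxp3 cells, and neither difference passed once that of D0 was subtracted.

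Over the 22 group means of the reversible-allele and GFP Treg libraries, the genes whose log2 CPM was most like that of each member were sought among 12399 genes, as a description in which groups share cell state and depth. Bcl2 was most like St8sia6 (Pearson r = 0.98), Bach2 and Ccr7 (both 0.98), Ms4a4c (0.97) and A930005H10Rik (0.96). Bcl2l11 was most like Bach2 (0.96), Nop56 (0.95), Isoc1 (0.94), Bcl2 itself (0.94) and Ramp1 (0.94). Bcl2l1 was most like Ppp1r3f (0.93), Cdc42se2 (0.93), Edem1 (0.92), Asxl1 (0.92) and Slc2a3 (0.91). Among the members, Bcl2l1 was closest to Bbc3 (r = 0.83) and Bcl2 and Mcl1 were opposite to Pmaip1 (r = -0.90 for both). The 22 groups include both cell states, and the correlations were not computed within a state.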

How the data were processed

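RNA of sorted cells was sequenced after SMART-Seq amplification. The authors deposited raw counts of read pairs per gene, made with featureCounts 2.0.3 over GENCODE gene names on mm39 (GRCm39) without strand. The notes of the submitters name Bowtie2 and the study's methods name STAR, so the aligner is unsettled. Per the file headers, 20 degron libraries were counted from primary alignments of mapping quality 30 or more and the other 44 without these settings, so levels were never compared across them. Within each comparison, edgeR 4.0.16 (R 4.3.3) was run on the counts with TMM factors and the robust quasi-likelihood F test, for genes with a mean count of at least 10, with Benjamini-Hochberg adjustment over all genes tested and a threshold of 0.05. Degron comparisons used their own libraries, those between cell types or effects the 12 adult libraries, and those of the reversible allele the 22 libraries of a state or all 44. CPM and TPM carry no TMM factor, and TPM uses the length of all annotated exons. Likeness used log2(CPM + 0.5) and genes with a mean count of at least 100.

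The members and lists were chosen with earlier results of these data known. Averages over days, their difference from D0 and between states, and the state difference of GFP Treg cells were added after the data were seen. The genes named are all members, Foxp3, up to 4 called genes per list and comparison by size, and the 5 most alike. Bcl2l13 and Gpr137 are named for their overlap. Fas is named for a state difference chosen after its value was seen. Results were recomputed with DESeq2 1.42.0, with RLE scaling, without the filter on counts, with the replicate number as a block, on the compared groups alone, by recorded file attachment, and without each library in turn. The tests were checked on simulated counts. Over 46 pairs of replicates the lowest chi-square per gene was 17.3, so none was counted once. Whether same-numbered libraries of different groups came from the same mouse was not found stated, and the main tests treated them as independent. Thymic and active libraries of the same genotype and replicate number have library names that begin with the same number. Pmaip1 has no sequence shown. The result of 1 further pathway list is not reported here.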

Additional observations from a re-analysis of the deposited data

Results flagged for a closer look

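Dixon's gap test was run on the members and Foxp3 in both infant groups, 22 sets of 4 libraries, and chance flags about 1 in 20. It marked 2 libraries titled WT as far from the other 3 of their group. Bcl2l1 was at 92.0 CPM in replicate 2 and at 71.4 to 72.8 CPM in the others, and Pmaip1 was at 27.5 CPM in replicate 1 and at 15.1 to 16.6 CPM in the others. Neither gene was called in the infant comparison.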

How the results depend on the processing

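Of 33 member effects called by edgeR, all kept their call with DESeq2, and none changed direction in any setting, while over all settings 329 recomputed effects kept their call and 73 lost it. Fitting only the groups compared ended 17 calls, with fewer libraries to estimate the spread. The number of members called then became 3 for thymic against active WT, 1 on resting D3, 0 on resting D14, resting D28 and active D28, 0 for resting and 3 for active GFP Treg against untreated minusFoxp3 cells, 0 for active GFP Treg against D28, 1 for the states of untreated minusFoxp3 cells and 3 for the resting mean. Totals over all genes moved as well, to 2322 from 3404 for thymic against active WT and to 8 from 55 on resting D14. On resting D3 the total rose to 204 from 10. DESeq2 called 1 member in infants, 1 on resting D3, 2 on resting D28 and active D7, 3 on active D14 and in the resting mean, 4 for resting GFP Treg against untreated minusFoxp3 cells, and 1 in the differences of the GFP Treg effects and of the mean effects between states. DESeq2 also called more of all genes than edgeR there, with 1107 against 3 in infants, 220 against 10 on resting D3, 463 against 194 on resting D28, 482 against 118 on active D7, 518 against 152 on active D14, 1572 against 970 in the resting mean, 1036 against 597 for resting GFP Treg cells, and 880 against 506 and 746 against 378 in the differences. Without the count filter it was 1 on resting and active D3, 2 on active D14, 5 for resting GFP Treg cells, 2 for active against resting GFP Treg cells, 2 in the resting mean and 1 in the state difference of the mean. DESeq2 and this setting both added Bcl2 on active D28. Over all genes, leaving out the filter gave 664 calls on resting D3 against 10 in the main fit. For thymic against active WT it gave 2996 against 3404. That setting ended the calls of Bax and Bad in the thymus (adjusted p = 0.0963 and 0.115) and of Mcl1 in active GFP Treg cells (0.144). RLE scaling gave 2 in the resting mean and ended the call of Bax in the thymus (0.0514). Except where the construction is named above, the cause was not tested.

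With the replicate number as a block, 2 members were called on resting D28 (Bid added), 2 in the resting mean and 1 in the state difference of the mean, and Bax and Bad in the thymus lost their call. Same-numbered libraries had correlations of -0.123 to 0.224 of their deviations, not over 0.1 in every pair of any comparison with 3 or more pairs. The lowest was in active GFP Treg against untreated minusFoxp3 cells. The highest were in active against resting cells, at 0.224 for untreated minusFoxp3 and 0.188 for GFP Treg cells. So few pairs cannot settle whether same-numbered libraries came from the same mouse.

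Leaving out each library in turn gave 3 to 6 members for thymic against active WT, 0 to 1 in infants, on resting D0, D14 and D28 and for active GFP Treg against D28, 1 to 2 for resting and 3 to 4 for active GFP Treg against untreated minusFoxp3 cells, 0 to 2 on active D7 and D28, 0 on active D14, 3 to 4 for the states of untreated minusFoxp3 cells, 1 to 2 in the resting mean and 6 in the active mean. Where 1 library of a pair remained, it was assumed to vary like the other groups. The difference of the mean effects between states was not rerun this way. By recorded attachment 5 members were called for thymic against active WT, without Bcl2l1 (0.42, adjusted p = 0.198) and Bad (-0.51, adjusted p = 0.184).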
